A study of Mus musculus with 13 samples.

Results

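The genes described are 9 members of the Hedgehog signalling pathway: the ligand genes Shh, Ihh and Dhh, the receptor and surface-protein genes Ptch1, Hhip and Boc, and the transcription factor genes Gli1, Gli2 and Gli3. They were chosen by name, with earlier results of these data known. Every deposited promoter row of these genes was taken, with every H3K27me3 region that overlaps one. This gave 12 of 77489 promoter rows and 11 of 57909 regions. The table names 55232 genes in all. All 11 regions were on the authors' list of regions shared by both genotypes.

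ChIP-seq was done on a male CAST/B6 hybrid line of mouse embryonic stem cells (ESCs) that carries a recombination cassette at Rosa26. Wild-type (WT) cells were compared with a double knockout (DKO) of SAFB and SAFB2, related RNA-binding proteins of the nucleus. All groups, controls included, had 3 days of doxycycline before formaldehyde crosslinking, per the labels. H3K27me3 was measured in 5 WT and 4 DKO libraries, and total histone H3 in 2 WT and 2 DKO libraries. Clone 4 gave DKO replicate 1 for H3K27me3, and clone 13 gave every other DKO library, H3 included, so the knockout is represented by a pair of clones, one of them in a single library. WT replicates 1, 4 and 5 share a name stem in the labels, while WT replicates 2 and 3 each have another. The labels of WT replicate 4 and DKO replicate 3 carry the word Old, and those of WT replicate 5 and DKO replicate 4 the word New, without a stated meaning. The labels do not say whether replicates are separate cultures, and the p-values measure only how these libraries vary, which may be technical.

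Hedgehog ligands are secreted, lipid-modified proteins that pattern the limb, neural tube, gut and skeleton of the embryo. Without ligand, the receptor PTCH1 holds the membrane protein SMO inactive. When ligand binds PTCH1, SMO is released and the GLI transcription factors switch from repressor to activator forms. H3K27me3, histone H3 trimethylated at lysine 27, is the mark that Polycomb repressive complex 2 deposits. It covers the start sites of many developmental regulators that are silent in ESCs, and these often lie in DNA rich in CG dinucleotides.

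RefSeq promoter sequences (build GRCm38.p6) were found for 6 of the 9 genes: Ihh, Dhh, Ptch1, Gli2, Gli3 and Hhip. The 250 bases before the RefSeq start are shown for Ptch1, the gene whose region rose in DKO, and for Ihh and Dhh, ligand genes whose regions fell. All 3 lie on the minus strand, at chr13:63565736-63565985 for Ptch1, chr1:74951673-74951922 for Ihh and chr15:98898541-98898790 for Dhh. They are written 5′ to 3′ with each CG dinucleotide in capitals.
Ptch1: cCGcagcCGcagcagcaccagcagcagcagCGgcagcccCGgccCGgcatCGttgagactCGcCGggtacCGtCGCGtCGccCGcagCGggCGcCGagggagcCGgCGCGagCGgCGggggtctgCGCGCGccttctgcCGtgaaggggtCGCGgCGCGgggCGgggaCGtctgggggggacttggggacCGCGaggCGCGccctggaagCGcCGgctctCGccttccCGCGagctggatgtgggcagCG
Ihh: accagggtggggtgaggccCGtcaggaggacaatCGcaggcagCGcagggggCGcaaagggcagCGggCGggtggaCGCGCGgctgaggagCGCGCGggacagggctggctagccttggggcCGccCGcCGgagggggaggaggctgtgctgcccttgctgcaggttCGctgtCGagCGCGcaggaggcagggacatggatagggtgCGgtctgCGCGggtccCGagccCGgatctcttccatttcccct
Dhh: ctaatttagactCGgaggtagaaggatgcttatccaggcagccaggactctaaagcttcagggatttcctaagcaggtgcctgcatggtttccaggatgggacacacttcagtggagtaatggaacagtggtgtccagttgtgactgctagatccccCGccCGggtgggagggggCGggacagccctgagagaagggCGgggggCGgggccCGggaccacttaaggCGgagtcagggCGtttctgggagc
The Ptch1 sequence held 41 CG dinucleotides, more than 98.9% of the 32851 RefSeq windows of this length, whose median was 6. Ihh held 24 and Dhh 9, and of the sequences not shown Gli3 held 34, Hhip 28 and Gli2 22. CG content therefore differed among the ligand genes themselves. The GLI binding motif GACCACCCA, searched on both strands, occurred in 0 of the 6 sequences and in 0.225% of all windows. With so few windows holding it, its absence from 6 sequences says little, and a match would not be a site in itself.

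The counts of an H3K27me3 library summed to between 798466 and 1427771 over promoter rows and to between 1818647 and 3134799 over regions. Those of an H3 library summed to between 525847 and 736566 over regions. For reference promoters, the highest row of each gene was taken, in CPM (counts scaled by library size). The median WT level was 284 CPM over 6 Polycomb-marked developmental genes (19.5 to 490) and 6.30 CPM over 8 pluripotency genes (0 to 108). It was 11.7 CPM over 6 fibroblast genes (0.159 to 99.8) and 0.867 CPM over 6 housekeeping genes (0 to 5.55). Reads over several rows were not counted, so some levels may be too low. The closely spaced Tbp and Nanog rows, for example, all held 0 CPM. The promoters of the deleted genes are no check of the genotype, since the 2 Safb rows held 4 and 0 counts and the Safb2 row 3 counts over the 9 H3K27me3 libraries together.

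Among the 11 regions that overlap a promoter row, those of the 3 ligand genes carried the most H3K27me3 per length in WT cells. The Shh region stood at 53.4 ± 3.58 CPM per kb (SD, n = 5), the Ihh region at 43.2 ± 2.27 and the Dhh region at 39.9 ± 1.59, above 99.9%, 99.9% and 99.8% of all regions respectively. The ranges of the WT libraries did not overlap between Shh and Ihh, nor between Dhh and the next region in order, but they did between Ihh and Dhh. Hhip followed at 17.7 ± 1.32 CPM per kb and Boc at 14.5 ± 1.64. The GLI genes lay between 10.1 and 14.2 CPM per kb in their 5 regions, and the Ptch1 region was the lowest of the 11 at 5.22 ± 1.16. From Hhip down, each region overlapped the next in its range over the WT libraries. The median of all 57909 regions was 8.83 CPM per kb, and the Ptch1 region stood above 3.96% of them. The ratio of H3K27me3 CPM per kb to total H3 CPM per kb was 3.14 at Shh, 2.14 at Ihh and 2.12 at Dhh. It was 0.362 at Ptch1 and 0.505 at the median region. The CPM of each antibody are scaled to its own libraries, so the ratio compares regions and is no absolute enrichment.

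**Figure D1:**
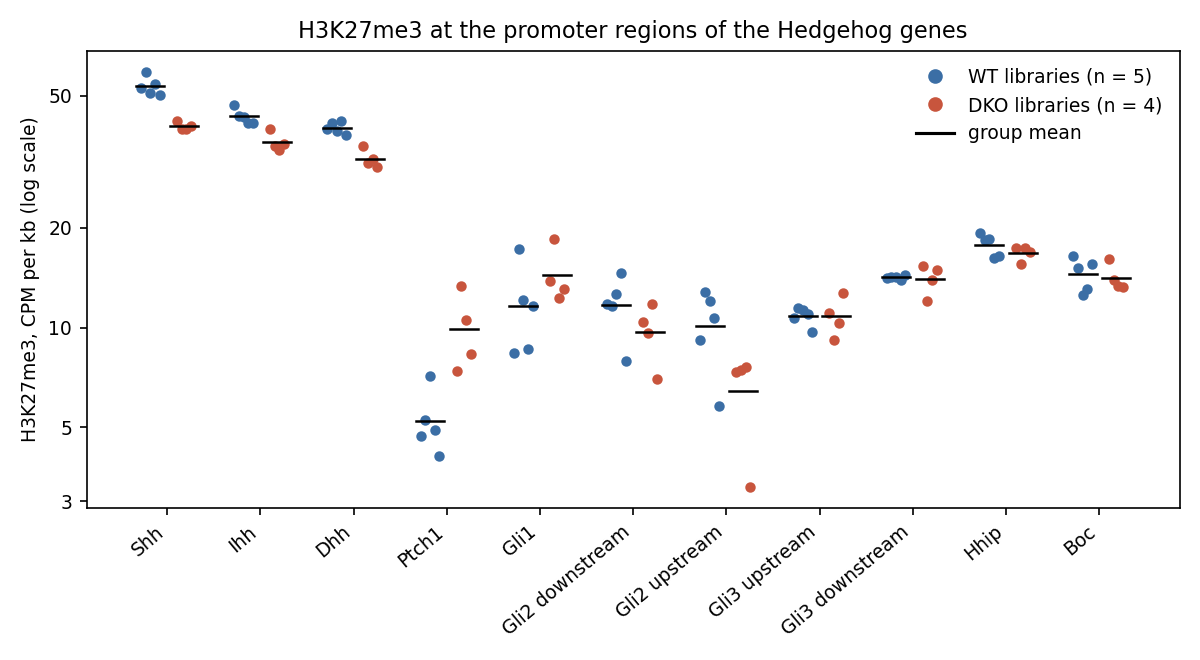
H3K27me3 in CPM per kb (log axis) at the 11 promoter regions, with a point for each WT and DKO library and a bar at the group mean. The Shh, Ihh and Dhh regions stand highest, with every DKO point under every WT point, and the Ptch1 region is lowest in WT, with every DKO point above every WT point.

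The promoter-overlapping regions covered a larger share of the ligand genes than of the others. The Shh region (chr5:28455275-28469574, 14300 bp) spanned 100% of the RefSeq gene, from 2318 bp before the start site to 11981 bp after it. The Ihh region (chr1:74945984-74954272, 8289 bp) covered 89.5% of its gene and the Dhh region (chr15:98892686-98900889, 8204 bp) 34.7%. The promoter-overlapping regions of the other 6 genes reached at most 4132 bp past the start site. They covered at most 10.6% of the gene, which was the value for Gli1. The share depends on gene length. The ligand genes span 6358 to 16948 bp and Gli1 11698 bp, but Ptch1, Gli2, Gli3, Hhip and Boc 65133 to 266304 bp. A further region at the outer 5′ end of Ptch1, left out here since it overlaps no promoter row of the gene, is 8795 bp long, longer than those of Ihh and Dhh. The start sites of Gli2 and Gli3 lay between a pair of regions, one upstream and one downstream. Several of these regions also hold promoter rows of other genes: 9530036O11Rik at Shh, Gm37744 at Ihh, Gm49442 at Dhh, A930032L01Rik at Ptch1, Gm6556 and Gm26645 at Gli3, and Mir3081 at Boc.

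**Figure D2:**
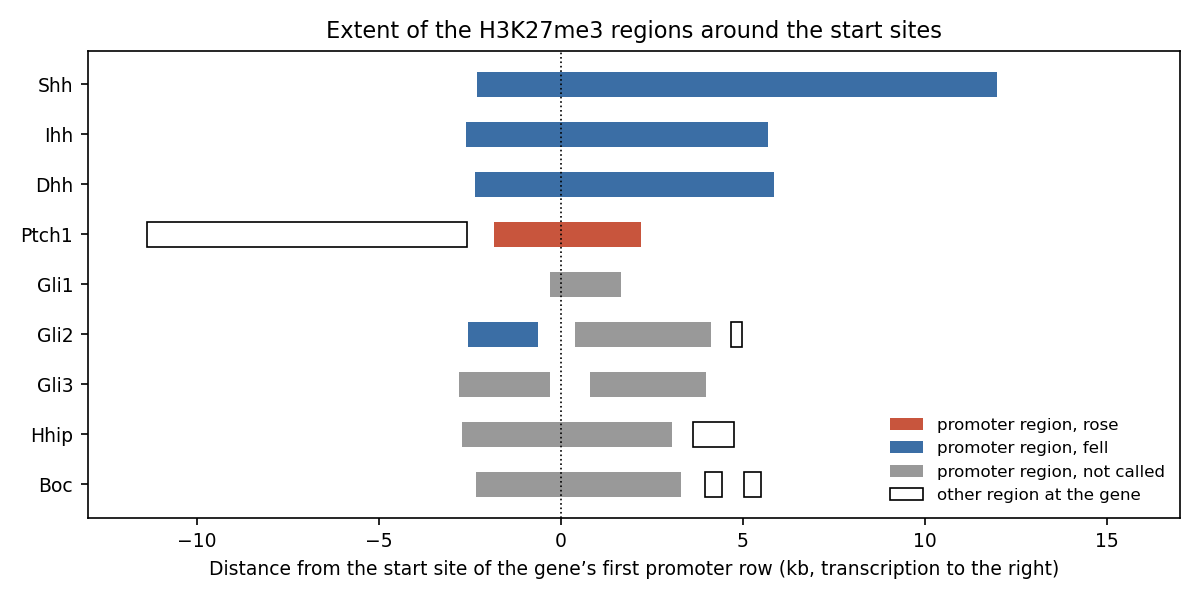
Extent of the H3K27me3 regions at each gene, as distance in kb from the start site of its first promoter row, with transcription to the right. Filled bars are the 11 promoter regions, coloured by their call in DKO against WT, and open bars are other regions at the gene within the plotted span. The Shh region reaches furthest, to 11981 bp past the start.

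The comparison of DKO with WT asked whether loss of SAFB and SAFB2 goes with a different H3K27me3 level at these genes. By edgeR's quasi-likelihood test with Benjamini-Hochberg adjustment over 40418 regions, 5 of the 11 regions passed an adjusted p of 0.05, and 6 had an unadjusted p under 0.05, against 19.5% of all regions. The Ptch1 region rose, the Shh, Ihh and Dhh regions and the upstream Gli2 region fell, and 6 were not called. Over all regions tested, 4.03% were called, 2.16% as higher and 1.88% as lower in DKO. Since the genes were chosen with earlier results of these data known, the number called among them is a description only. The median log2 fold change was −0.07 over the 11 regions and −0.02 over all regions.

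**Figure D3:**
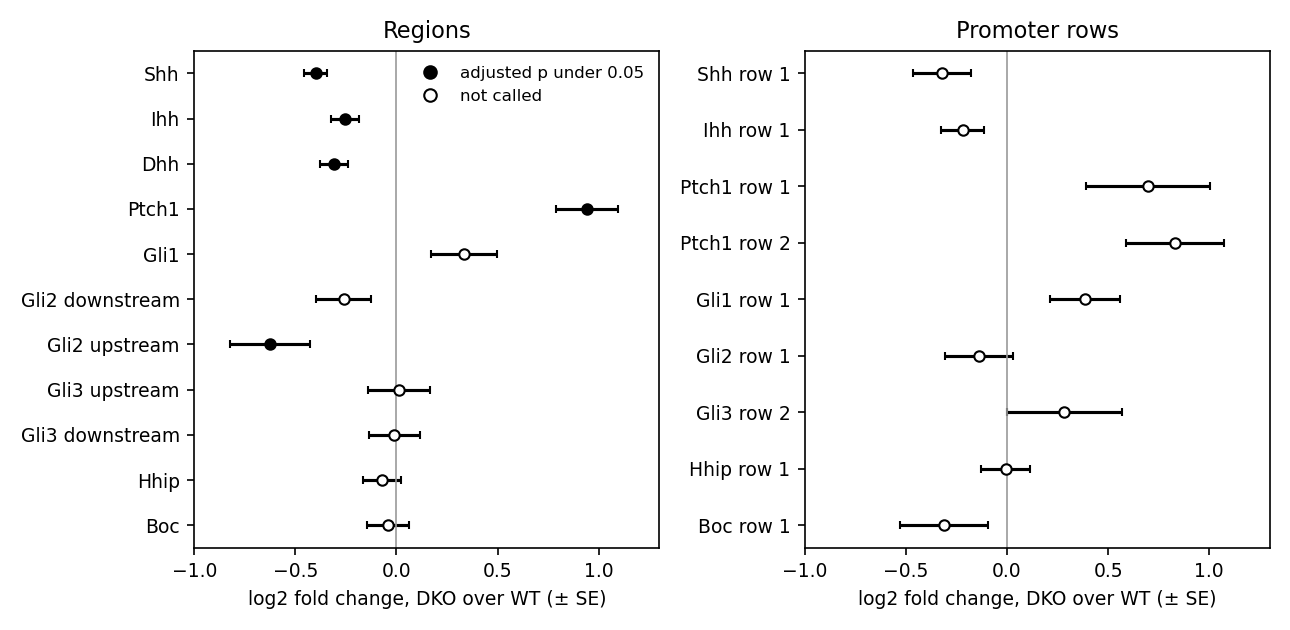
Log2 fold change of H3K27me3, DKO over WT, with its SE, for the 11 regions (left) and the 9 tested promoter rows (right). Filled points passed an adjusted p of 0.05. Ptch1 at 0.94 lies apart on the right among the regions, and none of the promoter rows is filled.

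Shh encodes the ligand that patterns the neural tube and limb. Its region held 751, 844, 726, 777 and 717 CPM in WT replicates 1 to 5, and 599, 566, 566 and 579 CPM in DKO replicates 1 to 4. All 4 DKO libraries, from both clones, lay under all 5 WT libraries, as did those of 3.40% of all regions tested. The WT mean was 763 ± 51.2 CPM (SD, n = 5) and the DKO mean 578 ± 15.4 CPM (SD, n = 4). This fall had a log2 fold change of −0.40 (SE 0.058, edgeR adjusted p = 3.36e-08). The call held under all 21 alternatives, with log2 fold changes from −0.44 to −0.20. The smallest, −0.20 (edgeR adjusted p = 0.0078), came from an offset that adjusts each library for the level of a region. In bulk ChIP-seq, less of the mark in every cell and its loss in some cells cannot be told apart.

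Dhh encodes the ligand of the testis and of nerve sheaths. Its region held 325, 338, 320, 343 and 311 CPM in WT replicates 1 to 5, and 289, 257, 264 and 250 CPM in DKO replicates 1 to 4, again without overlap. The log2 fold change was −0.31 (SE 0.069, edgeR adjusted p = 0.00193). With the level offset the value was −0.17 (edgeR adjusted p = 0.0836), and within the libraries labelled neither Old nor New it was −0.27 (edgeR adjusted p = 0.292), so the call was lost in these. The other 19 alternatives kept it.

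Ihh encodes the ligand of the growth plate and gut. Its region held 389, 361, 356, 343 and 343 CPM in WT replicates 1 to 5, and 329, 291, 285 and 297 CPM in DKO replicates 1 to 4. The groups did not overlap, with DKO replicate 1, the clone 4 library, nearest to WT. The log2 fold change was −0.25 (SE 0.068, edgeR adjusted p = 0.0127). The call was kept under 14 of 21 alternatives. The losses included those without DKO replicate 2 (−0.23, edgeR adjusted p = 0.0855), without DKO replicate 3 (−0.22, edgeR adjusted p = 0.0818) and with the level offset (−0.11, edgeR adjusted p = 0.275).

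The fall at the ligand genes was shared by other regions with as high a total CPM. Of the 334 tested regions with a mean of at least 299.6 CPM, the mean of the lowest ligand region, 201 (60.2%) fell and 5 rose, with a median log2 fold change of −0.23. These 334 include the ligand regions. They were taken by CPM over both genotypes and not per kb, so long regions with less of the mark per length can be among them. The Ihh value of −0.25 lay near that median, and the Dhh value of −0.31 somewhat below it. At −0.40 the Shh value was lower, and 4.49% of the 334 regions had a still lower one.

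Ptch1 encodes the ligand receptor and is itself a widely used target gene of the pathway. Its region (chr13:63563538-63567579, 4042 bp) runs from 1844 bp before to 2197 bp after the start site of its first promoter row. It held 19.0, 21.2, 28.9, 19.9 and 16.6 CPM in WT replicates 1 to 5, and 29.97, 54.1, 42.7 and 33.7 CPM in DKO replicates 1 to 4. Every DKO library was above every WT library, as in 3.36% of all regions tested, but DKO replicate 1, from clone 4, was only just above WT replicate 3. The raw counts behind these levels were 43, 36, 55, 51 and 49 in WT, and 70, 117, 128 and 95 in DKO.

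The WT mean at Ptch1 was 21.1 ± 4.69 CPM (SD, n = 5) and the DKO mean 40.1 ± 10.7 CPM (SD, n = 4). This rise had a log2 fold change of 0.94 (SE 0.154, edgeR adjusted p = 2.09e-06). The call held under all 21 alternatives, with values from 0.79 to 1.23 and adjusted p-values up to 0.0282. Within the libraries labelled neither Old nor New the log2 fold change was 0.86, and within those labelled Old or New it was 1.08. Of the 27473 tested regions on the shared list, 416 (1.51%) rose and 499 fell, and 6 had a higher log2 fold change than Ptch1. The authors' lists of regions of 1 genotype were selected on this same contrast, so a rank within the shared list says little. Among all 40418 regions tested, 215 were called with a log2 fold change at least as high as that of Ptch1, itself included. In DKO the region reached 9.93 ± 2.66 CPM per kb, close to the GLI gene regions and still well under the ligand genes.

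A second region lies 730 bp further upstream (chr13:63568310-63577104, 8795 bp) and holds the outer 5′ end of the RefSeq Ptch1 gene at position 63573460. It carried far more H3K27me3, 30.1 CPM per kb in WT. Its level was 278, 263, 275, 245 and 262 CPM in WT replicates 1 to 5, and 236, 222, 227 and 225 CPM in DKO replicates 1 to 4. The DKO libraries were therefore all lower here, while they were all higher in the promoter region. The log2 fold change was −0.22 (SE 0.073, edgeR adjusted p = 0.0636) and did not pass. That value lay near the median of −0.23 over the 334 tested regions with a mean of at least 299.6 CPM. The upstream region itself lies under that level. The log2 ratio of the promoter region's counts to those of the upstream region, which does not depend on how libraries are scaled, was −3.67 ± 0.283 (SD, n = 5) in WT and −2.54 ± 0.409 (SD, n = 4) in DKO. The difference was 1.13, and it lay between 0.96 and 1.28 with each library left out in turn. This ratio was chosen after seeing that the groups separate in opposite directions in the 2 regions, so it is a description and carries no test. The ratio still holds any difference that goes with the level of a region. How much of the 1.13 such a difference makes up was not tested.

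**Figure D4:**
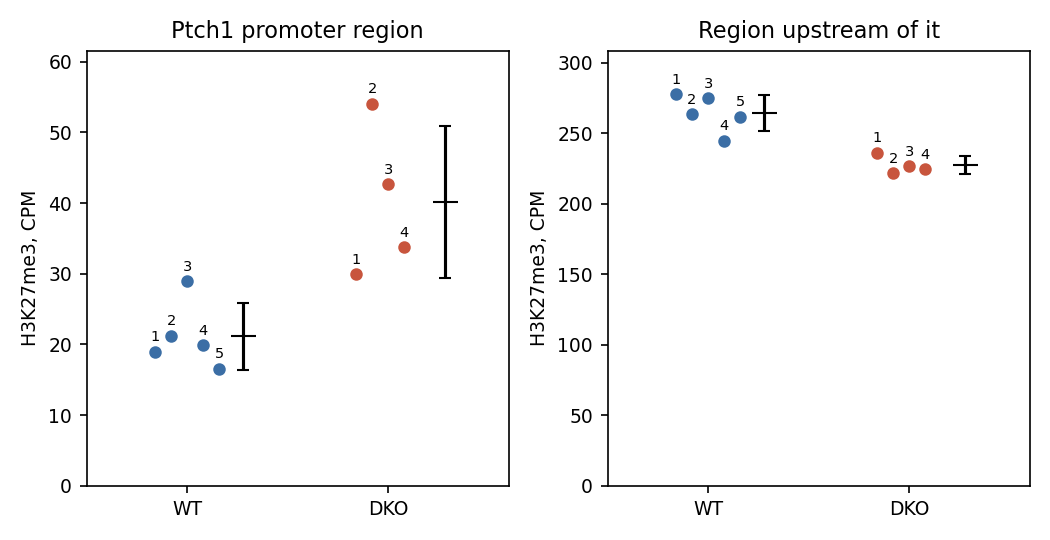
H3K27me3 in CPM at the Ptch1 promoter region (left) and the region upstream of it (right), with a numbered point for each replicate and the mean ± SD beside them. DKO libraries lie above all WT libraries on the left, at 29.97 to 54.1 CPM, and below all of them on the right, at 222 to 236 CPM.

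Hhip, a decoy receptor that binds ligand, and Boc, a co-receptor, were not called. The Hhip region (chr8:80054954-80060716) ranged from 93.6 to 111 CPM in WT and from 89.7 to 100.2 CPM in DKO, with a log2 fold change of −0.07 (SE 0.095, edgeR adjusted p = 0.71). The Boc region (chr16:44555601-44561235) ranged from 70.5 to 92.3 CPM in WT and from 74.5 to 90.8 CPM in DKO, with a log2 fold change of −0.04 (SE 0.103, edgeR adjusted p = 0.853). In both genes the groups overlapped. A smaller region inside Hhip (chr8:80053246-80054384) had a log2 fold change of 0.18 (SE 0.229) and was not called, nor was the strongest further region of Boc (chr16:44532151-44533237; −0.28, SE 0.229).

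Gli2 encodes the main activator of the pathway in many tissues. Its upstream region (chr1:119054248-119056177, 1930 bp) held 17.7, 24.8, 23.2, 20.7 and 11.2 CPM in WT replicates 1 to 5, and 14.1, 14.3, 14.7 and 6.39 CPM in DKO replicates 1 to 4. The groups overlapped, and the lowest library of each carries the word New in its label. The log2 fold change was −0.62 (SE 0.198, edgeR adjusted p = 0.0485), and this call was kept under only 7 of 21 alternatives. It was lost without any one of WT replicates 2, 3 and 4 and DKO replicates 2, 3 and 4, with values from −0.73 to −0.39. The value of −0.39 (edgeR adjusted p = 0.296) was the one without DKO replicate 4. The downstream Gli2 region (chr1:119049487-119053237) had a log2 fold change of −0.26 (SE 0.137, edgeR adjusted p = 0.275), with overlapping groups. A further short region of the gene (chr1:119048641-119048946) had too few counts to be tested.

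Gli1, which amplifies the response and is commonly read as its marker, was not called. Its region (chr10:127340335-127342285) held 16.3, 33.6, 23.7, 16.8 and 22.7 CPM in WT and 26.97, 36.1, 24.0 and 25.6 CPM in DKO, and the groups overlapped widely. The log2 fold change was 0.33 (SE 0.163, edgeR adjusted p = 0.234). Gli3, whose product acts mostly as a repressor, had a log2 fold change of 0.01 (SE 0.154) in its upstream region (chr13:15460438-15462952) and −0.01 (SE 0.127) in the downstream one (chr13:15464048-15467235). The downstream region ranged only from 44.4 to 46.0 CPM in WT, with the smallest SD of the 11 regions there, and from 38.4 to 48.8 CPM in DKO.

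The promoter rows, which count reads over 3001 bp around each start site, hold part of the same reads. Of the 12 rows, 9 from 8 genes had enough counts to be tested and 0 passed by edgeR, against 0.628% of the 32647 rows tested. At an unadjusted p under 0.05 there were 5, against 10.2% of all rows. A read that overlaps more than 1 row is not counted under the authors' settings, so rows with close neighbours lose signal. Each of the 2 Dhh rows had 34 bp free of other rows and they held 9 and 31 counts over the 9 libraries, although the Dhh region is among the strongest. The first Gli3 row had 0 free bases and 0 counts. These 3 rows were not tested.

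The Ptch1 rows moved most. The second row, with its start site 1200 bp further into the gene, held 14.6, 13.7, 18.3, 11.9 and 8.48 CPM in WT replicates 1 to 5, and 16.1, 32.1, 25.9 and 19.2 CPM in DKO replicates 1 to 4. DKO replicate 1 lay within the WT range and the other 3 above it. The log2 fold change was 0.83 (SE 0.243, edgeR adjusted p = 0.079). It passed without DKO replicate 1 (0.96, edgeR adjusted p = 0.0372), with a term for the Old and New labels (0.85, edgeR adjusted p = 0.0422) and with clone 13 against WT replicates 1, 4 and 5 (1.14, edgeR adjusted p = 0.0467). The first row, with 518 free bp, had a log2 fold change of 0.70 (SE 0.307, edgeR adjusted p = 0.389).

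Among the other rows, Gli1 was at 0.39 (SE 0.174), Gli3 at 0.28 (SE 0.285), Hhip at −0.01 (SE 0.122), Gli2 at −0.14 (SE 0.169), Ihh at −0.22 (SE 0.106), Boc at −0.31 (SE 0.218) and Shh at −0.32 (SE 0.143) in log2 fold change. WT and DKO libraries overlapped in each of these rows. The Gli1, Gli2 and Hhip rows lie free of other rows and can be read at full length. Their levels were 40.7 ± 10.5 CPM (SD, n = 5) in WT and 53.1 ± 10.7 CPM (SD, n = 4) in DKO at Gli1, and 57.5 ± 13.95 and 51.7 ± 15.5 CPM at Gli2. At Hhip they were 145.9 ± 22.9 CPM in WT and 143.5 ± 3.73 CPM in DKO.

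The promoter rows whose levels followed the second Ptch1 row most closely over the 9 libraries were those of Osm (Pearson r = 0.97), Gm11957 (r = 0.97) and 4933428G20Rik (r = 0.96), among 31915 rows compared. All 3 lie on chromosome 11, while Ptch1 is on chromosome 13. Their log2 fold changes were 0.65, 0.63 and 0.40. The libraries, their depth and the genotype difference are common to all these rows, and 43 rows had an r of 0.9 or more.

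Total H3 showed no called difference at these genes. By edgeR, 0 of the 11 regions passed and 0 had an unadjusted p under 0.05, against 0.0211% called and 6.17% at an unadjusted p under 0.05 among the 18938 regions tested. Log2 fold changes ranged from −0.18 to 0.30, the highest at Ptch1. There the H3 libraries held 69.2 and 47.4 CPM in WT and 97.2 and 52.4 CPM in DKO, from 24 to 37 counts each. The replicates of each genotype lay further apart than the group means. In the library names, H3 replicate 1 of both genotypes carries the letter o and replicate 2 the letter n, without a stated meaning. Within each replicate number the DKO library was the higher at Ptch1. No alternative setting, a replicate block included, called this H3 difference. For the ligand genes the H3 log2 fold change was 0.08 (SE 0.142) at Shh, 0.13 (SE 0.170) at Ihh and −0.02 (SE 0.179) at Dhh.

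When the H3K27me3 difference was tested net of the H3 difference, over all 13 libraries, 0 of the 11 regions passed by edgeR and 2 had an unadjusted p under 0.05. Over all 54290 regions tested, 0.00184% were called and 6.71% had an unadjusted p under 0.05. Net of H3, the log2 difference was −0.50 (SE 0.154, edgeR adjusted p = 0.454) at Shh, −0.41 (SE 0.185, edgeR adjusted p = 0.695) at Ihh, −0.31 (SE 0.193) at Dhh and −0.46 (SE 0.472) at the upstream Gli2 region. At Ptch1 it was 0.61 (SE 0.338, edgeR adjusted p = 0.766). The Ptch1 value rested on single H3 libraries. It was 0.18 without DKO H3 replicate 2, 0.32 without WT H3 replicate 1 and 1.06 without DKO H3 replicate 1. With 2 H3 libraries of each genotype, no difference net of H3 passed the test for these genes.

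Among 53 further genes of the pathway, 32 had a promoter row with enough counts. Of these genes, 1 rose and 3 fell, counting a gene if any of its rows was called. Counted by row, 0.438% of all rows tested rose and 0.19% fell. A gene with several rows has several chances, so the shares are not in the same unit. The median log2 fold change of the 39 rows of these genes was −0.11, against −0.01 for all rows tested. Of 9 genes for processing and release of the ligands 3 were tested, and of 19 receptors and transducers 9 were tested, with 0 called by edgeR in either list at an adjusted or unadjusted p under 0.05. These include Smo, the signal transducer that PTCH1 inhibits, at 123 ± 24.7 CPM (SD, n = 5) in WT and 136 ± 10.6 CPM (SD, n = 4) in DKO.

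All 4 calls were among the 25 genes listed as pathway targets in some tissues, of which 20 were tested. At an unadjusted p under 0.05 in any of its rows, 2 of these genes were higher and 10 lower in DKO. Counted by row and not by gene, 10.2% of all rows tested had such a p in either direction. Of the 6 Polycomb-marked reference genes, 3 were lower and 0 higher at that threshold, and the median log2 fold change of their rows was −0.16. Prdm1, a transcriptional repressor of germ cell and limb development, held 25.3, 26.1, 28.1, 27.1 and 27.7 CPM in its row at chr10:44456210-44459210 in WT replicates 1 to 5, and 45.2, 73.0, 41.9 and 30.8 CPM in DKO replicates 1 to 4. It rose by a log2 fold change of 0.79 (SE 0.190, edgeR adjusted p = 0.0166) without overlap, and the call was lost without DKO replicate 2 (0.54, edgeR adjusted p = 0.403). It was also lost within the libraries labelled Old or New (0.43, edgeR adjusted p = 0.70), with a replicate block (0.76, edgeR adjusted p = 0.0509), with WT replicates 1, 4 and 5 only (0.81, edgeR adjusted p = 0.0635) and with clone 13 against these (0.82, edgeR adjusted p = 0.0965).

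The 3 target genes that fell encode transcription factors. Nkx6-1, which acts in the ventral neural tube, fell from 360.2 ± 29.1 to 276 ± 32.0 CPM, a log2 fold change of −0.39 (SE 0.103, edgeR adjusted p = 0.0431). Osr2, which acts in palate and limb, fell from 352 ± 15.0 to 269 ± 17.0 CPM, a log2 fold change of −0.39 (SE 0.103, edgeR adjusted p = 0.0401). This was its row at chr15:35294098-35297098. Another Osr2 row (chr15:35298300-35301300) had a log2 fold change of −0.37 (SE 0.105, edgeR adjusted p = 0.0664) and did not pass. Pax1, which acts in the sclerotome, fell from 103 ± 19.5 to 70.8 ± 15.2 CPM, a log2 fold change of −0.53 (SE 0.145, edgeR adjusted p = 0.0461). These calls lie close to the threshold. Nkx6-1 was called without WT replicate 4 but lost without each of the other libraries (−0.44 to −0.30), and Osr2 was lost without each library other than WT replicates 1 and 4 (−0.43 to −0.36). Pax1 kept its call without WT replicate 1 or 4 and without DKO replicate 2, and lost it without each of the others, at values from −0.59 to −0.42. With no filter, within either set of library labels, with WT replicates 1, 4 and 5 only and with clone 13 against these, all 3 calls were lost. The level offset also ended those of Nkx6-1 (−0.26, edgeR adjusted p = 0.102) and Osr2 (−0.26, edgeR adjusted p = 0.117), as did the replicate block (edgeR adjusted p = 0.0531 and 0.0743), and DESeq2 that of Pax1 (DESeq2 adjusted p = 0.0866).

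After Prdm1, the highest values on the list were those of Ccnd1 (0.48, SE 0.136, edgeR adjusted p = 0.0677) and Cdk6 (0.35, SE 0.277), which drive the cell cycle. Beside Pax1, the lowest were those of Foxf2 (−0.51, SE 0.154, edgeR adjusted p = 0.0962) and Foxa2 (−0.50, SE 0.139, edgeR adjusted p = 0.0605), forkhead factors of the gut and floor plate. All 4 DKO libraries were above WT at Ccnd1, as in 1.74% of all rows tested. All 4 were below WT at Foxf2 and in this Foxa2 row (chr2:148044948-148047948), as in 1.61%. Another tested Foxa2 row (chr2:148045969-148048969) had a log2 fold change of −0.11 (SE 0.167, edgeR adjusted p = 0.885), and its groups overlapped.

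**Figure D5:**
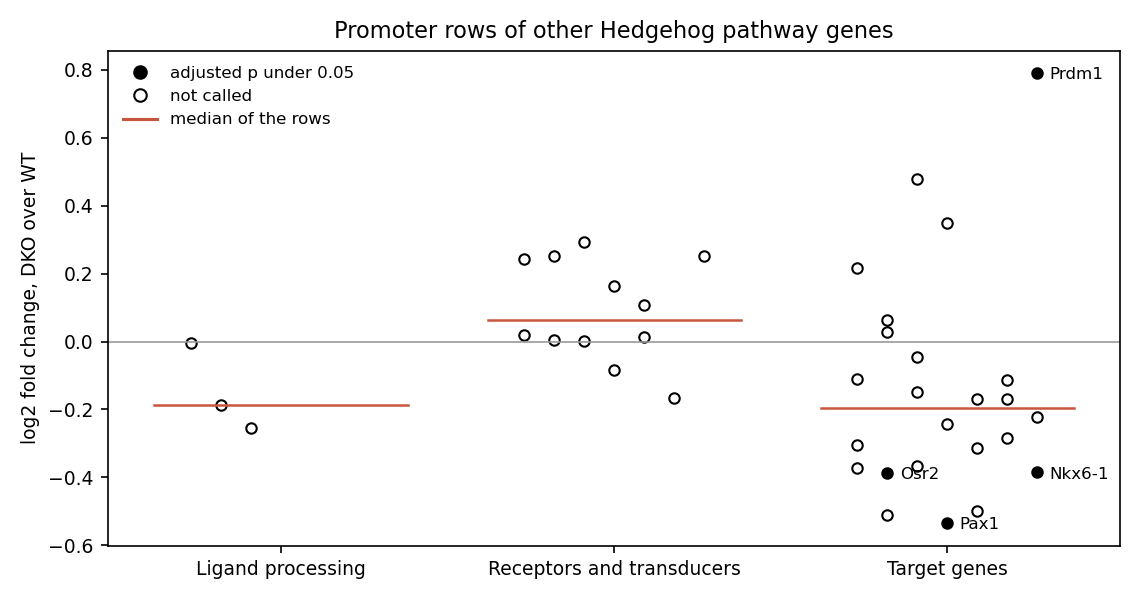
Log2 fold change of promoter H3K27me3, DKO over WT, for the tested rows of other Hedgehog pathway genes, 1 point per row, in 3 lists with the median of each. Filled points passed an adjusted p of 0.05: Prdm1 at 0.79, and Nkx6-1, Osr2 and Pax1 at −0.39 or lower, all of them in the list of target genes.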

How the data were processed

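H3K27me3 was measured by ChIP-seq in 5 WT and 4 DKO libraries and total H3 in 2 of each. The authors deposited raw counts per promoter row and per region, with no normalization. Per the file headers, featureCounts 2.0.3 made the promoter counts, ignoring strand, and a read over several rows was not assigned. The submitters' processing notes list, with no roles, featureCounts, Subread, Bowtie2, bedtools and MACS2, and the build mm10. How regions were called and counted, and what the b6 in column names means, was not stated in those sources.

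From 77527 promoter rows, 37 of chromosome M and the Gm21748 row, which spans most of chromosome Y, were left out. Tests used edgeR 4.0.16 under R 4.3.3 (quasi-likelihood F test, two-sided, no covariate, filterByExpr with minimum count 10 and minimum total 15, TMM scaling), with Benjamini-Hochberg adjustment over all rows of a table and calls at 0.05. SE is the log2 fold change divided by the root of F, and CPM are TMM-scaled. DESeq2 1.42.0 and limma 3.58.1 (loess level offset) served alternatives: other scalings, no filter, label terms, subsets of libraries and each library left out. The test was run on simulated counts with 200 changed rows. These had the same dispersion for every row and no differences between clones or library sets, so the check does not cover such variation. No pair of libraries held identical counts. Same-numbered H3K27me3 libraries did not deviate together (all correlations between −0.0278 and 0.0714), so replicate numbers were not taken as pairs. For H3K27me3 libraries that share the word Old or New, correlations ran from 0.0061 to 0.0906, and the main fit holds no term for these words. The H3 libraries were not checked in this way.

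The genes and lists were chosen with earlier results of these data known. Named were all 9 members, the pathway genes that passed or lay among the 3 highest and 3 lowest rows, other regions at a member that passed or were its strongest, and the 3 rows most like the member row of smallest p. RefSeq tables of GRCm38.p6 gave gene spans and sequences. Figures used Python 3.11.15, numpy 2.4.6, pandas 2.3.3 and matplotlib 3.10.9.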

Additional observations from a re-analysis of the deposited data

Results flagged for a closer look

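In the upstream Gli2 region, DKO replicate 4 stood at 6.39 CPM, far under the 14.1, 14.3 and 14.7 CPM of the other DKO libraries. The gap to its nearest neighbour made up 0.934 of the range of the 4 libraries, past Dixon's critical value. WT replicate 5, which like DKO replicate 4 carries the word New in its label, was the lowest WT library at 11.2 CPM. Without DKO replicate 4 the log2 fold change of the region was −0.39 (edgeR adjusted p = 0.296), and it was not called. This was 1 of 42 groups looked at for such a library, and chance picks out about 1 in 20.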

How the results depend on the processing

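The Ptch1 and Shh regions kept their direction and call under all 21 alternatives, Dhh under 19, Ihh under 14 and the upstream Gli2 region under 7, all in the same direction. Library totals (−0.19), the libraries with neither Old nor New (−0.26), those with Old or New (−0.23) and WT 1, 4 and 5 only (−0.26) were further settings in which Ihh lost its call. The level offset, the clone 13 subset and the Ptch1 ratio were chosen after seeing the data. Every value net of H3 rests on 2 H3 libraries of each genotype, with 525847 to 736566 counts each. The causes of these changes were not tested.

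The number of promoter rows called, 205, became 134 without a filter, 389 with a term for the Old and New labels, 22 within the libraries with neither word, 57 within those with either, 90 with WT 1, 4 and 5 only, 79 with clone 13 against WT 1, 4 and 5, and 50 (without DKO replicate 2) to 253 (without WT replicate 1) with a library left out. It was 105 without WT replicate 2, 81 without WT replicate 5 and 87 without DKO replicate 3. The number of regions called, 1630, became 725 by DESeq2, 146 within the libraries with neither word, 692 within those with either, 879 with WT 1, 4 and 5 only, 857 with clone 13 against them, and 623 (without DKO replicate 3) to 2882 (without WT replicate 1) with a library left out. It was 1068, 1035 and 848 without WT replicates 2, 4 and 5, and 730 without DKO replicate 2. For total H3, 4 calls became 2 without a filter, 0 by DESeq2, and 0 to 4 with a library left out. Net of H3, 1 call became 3 with scaling that leaves out chromosomes 6 and 11, and 0 to 2 with a library left out.

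Same-numbered H3K27me3 libraries share only a number, while same-numbered H3 libraries also share a letter in their names. With a replicate block, 109 promoter rows, 963 regions, 5 regions in H3 and 1 net of H3 were called, and the upstream Gli3 region stood at −0.029.

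Values that changed sign were all of uncalled differences. In log2 fold change the Hhip row became 0.0075 with scaling that leaves out chromosomes 6 and 11, 0.0057 without a filter, 0.0066 by DESeq2, 0.022 with the label term, 0.27 within the libraries with Old or New, 0.092 with WT 1, 4 and 5 only, 0.042 with the level offset, 0.11 with clone 13, and −0.099 to 0.041 with a library left out. The Gli2 row became 0.0087 with WT 1, 4 and 5 only and −0.30 to 0.053 with a library left out, and the Shh row 0.067 within the libraries with Old or New. The upstream Gli3 region became −0.019 with scaling that leaves out chromosomes 6 and 11, −0.14 within the libraries with neither word, and −0.071 to 0.087 with a library left out. The downstream one became 0.057 with library totals, 0.029 within the libraries with Old or New, and −0.047 to 0.059 with a library left out. The Boc region became 0.025 with library totals and 0.025 within the libraries with neither word, and −0.10 to 0.0033 with a library left out, and Hhip 0.072 within those with either word. In total H3, Dhh became 0.0031 with scaling that leaves out chromosomes 6 and 11, and with a library left out Dhh ranged from −0.032 to 0.042, Ihh from −0.025 to 0.34, Ptch1 from −0.14 to 0.76 and Shh from −0.0035 to 0.22.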
